A study of Mus musculus with 12 samples.

Results

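Immediate early genes were described in 12 pancreatic neuroendocrine tumors (PanNETs) sequenced after short-term treatment. The members were 10 genes, *Fos*, *Fosb*, *Jun*, *Junb*, *Egr1*, *Atf3*, *Dusp1*, *Ier2*, *Nr4a1* and *Klf4*, found by their Ensembl identifiers among the 38924 genes of the count tables. All 10 had enough reads to be tested, among 16645 genes tested in all. All tumors were insulinomas of RIP1Tag2 mice on a C57Bl6 background, in which the rat insulin promoter drives a viral oncogene in pancreatic beta cells. Treatment began at 15.5 weeks of age in each group and lasted 4 days. Control mice received saline (4 tumors). The sunitinib group received sunitinib, an inhibitor of VEGF, PDGF and other receptor tyrosine kinases, as monotherapy (4 tumors), and the R+S group received rapamycin, an inhibitor of mTOR complex 1, together with sunitinib (4 tumors). The tumors are called here by the numbers in their labels: 1, 2, 3 and 4 in the control group, 5, 6, 8 and 12 in the sunitinib group, and 4, 5, 7 and 10 in the R+S group. The labels also carry a prefix, shared by the 4 control tumors, by sunitinib-treated tumors 5, 6 and 8 and by R+S-treated tumors 5 and 7. Each prefix belongs to a single group, and its effect cannot be told apart from that of treatment. The labels do not say which tumors came from the same mouse, and p-values therefore measure the spread between tumors, which may in part be spread within a mouse.

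Immediate early genes are transcribed within minutes of a stimulus, without new protein synthesis, and their mRNAs are short-lived. Growth factor receptors reach them through the ERK pathway and serum response factor with its ELK partners, calcium and cyclic AMP through CREB, and stress through the JNK and p38 kinases. Most encode transcription factors: FOS and JUN proteins pair to form AP-1, EGR1 and KLF4 are zinc finger proteins, NR4A1 is an orphan nuclear receptor, and ATF3 is also a target of ATF4 in the integrated stress response. *Dusp1* encodes a phosphatase that switches off MAP kinases, and *Ier2* a nuclear protein of less clear function. In beta cells, glucose and depolarization induce several of them through calcium, and in dissected tissue they also respond to the time between excision and freezing, which the sources used here do not give for the sequenced tumors.

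Upstream sequence is shown for the genes on which the results turned: *Atf3* and *Jun*, whose groups did not overlap in a comparison, *Fos*, which had the largest excess in a single tumor, and *Dusp1*, the member with the most matches. The RefSeq table (GRCm38.p6) held a window for 8 of the 10 members, and *Egr1* and *Ier2* had none. The 250 bases before the transcription start were searched on both strands for TGACGTCA (the cyclic AMP response element), its shorter form TGACGT, TGACNTCA (a looser form that includes the first motif), TGANTCA (the AP-1 site) and the CArG box of serum response factor. The windows lie at chr12:85473640-85473889 on the + strand for *Fos*, at chr4:95052223-95052472 on the - strand for *Jun*, at chr1:191183334-191183583 on the - strand for *Atf3* and at chr17:26508473-26508722 on the - strand for *Dusp1*. Those of *Fos* and *Jun* end at the base just before the GENCODE gene. Those of *Atf3* and *Dusp1* lie inside the span of the GENCODE gene, upstream of the RefSeq start, since longer transcripts are annotated there. Each sequence reads 5′ to 3′ on the strand of the gene and ends next to the start. Capitals mark the matches.
Fos: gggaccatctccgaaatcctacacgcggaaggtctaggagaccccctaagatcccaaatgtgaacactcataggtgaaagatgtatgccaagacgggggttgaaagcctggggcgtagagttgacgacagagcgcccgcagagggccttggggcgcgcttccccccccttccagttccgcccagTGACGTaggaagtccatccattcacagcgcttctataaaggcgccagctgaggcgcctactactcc
Jun: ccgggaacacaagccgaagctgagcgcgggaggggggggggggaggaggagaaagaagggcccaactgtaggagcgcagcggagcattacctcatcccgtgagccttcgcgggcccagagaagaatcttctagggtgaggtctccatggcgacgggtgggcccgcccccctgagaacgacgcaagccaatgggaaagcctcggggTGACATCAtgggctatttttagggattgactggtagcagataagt
Atf3: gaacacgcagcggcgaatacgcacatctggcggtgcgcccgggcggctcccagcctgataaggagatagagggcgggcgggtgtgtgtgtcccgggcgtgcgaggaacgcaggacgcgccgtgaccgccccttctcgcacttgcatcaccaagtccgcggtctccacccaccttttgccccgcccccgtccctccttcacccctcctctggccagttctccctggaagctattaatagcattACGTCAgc
Dusp1: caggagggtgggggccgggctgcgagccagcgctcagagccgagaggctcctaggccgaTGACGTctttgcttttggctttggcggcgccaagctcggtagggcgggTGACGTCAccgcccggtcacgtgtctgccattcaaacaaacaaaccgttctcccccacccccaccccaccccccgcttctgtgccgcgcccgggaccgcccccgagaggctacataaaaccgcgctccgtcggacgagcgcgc

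TGACGT occurred in 3 of the 8 windows (*Fos*, *Atf3* and *Dusp1*) and in 6.47% of 32851 mouse promoter windows of the same length. *Fos* held it 66 to 61 bases before the start, *Atf3* 8 to 3 bases before the start on the opposite strand. TGACGTCA occurred in 1 of the 8, at 143 to 136 bases before the start of *Dusp1*, and in 1.55% of all windows. TGACNTCA occurred in 2 of the 8, at that same place in *Dusp1* and at 45 to 38 bases before the start of *Jun*, and in 7.49% of all windows. TGANTCA and the CArG box had no match in the 8 windows, against 6.75% and 1.47% of all windows. Sequence further upstream was not searched, and *Egr1* and *Ier2* had no window. Whether the members hold these 2 motifs outside the windows was therefore not tested. The matches found are letters in a window, and binding was not measured.

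Counted reads per tumor numbered 31872342 to 44215054. Sunitinib-treated tumor 6 stood apart. All 10 listed beta cell markers were at their lowest of the 12 tumors there, with a summed level of 1856 CPM (read counts scaled to the library size by TMM) against 31261 to 76788 in the other 11. *Ins1* was at 338 CPM there and at 3835 to 20927 in the others, and *Pdx1*, a beta cell transcription factor, at 4.17 against 155 to 442. It was also the highest of the 12 for acinar markers (49844 CPM) and other islet cell markers (424, against 59.3 to 390) and the lowest for macrophage and neutrophil (283, against 411 to 873), lymphocyte (13.3, against 19.4 to 51.7) and duct markers (257, against 351 to 621). Over all tested genes it was the highest of the 12 for 22.6% and the lowest for 22.6%, and sunitinib-treated tumor 12 was close to that, with 21.3% and 20.9%. Its share of uniquely placed reads outside genes (15.24%, range 11.11% to 18.76%) and of mitochondrial reads (2.23%, range 2.04% to 3.69%) lay within those of the other tumors. The summed level of 32 acinar markers was 42.6 to 147 CPM in control, 13907 to 49844 in sunitinib-treated and 3659 to 19896 in R+S-treated tumors, and that of 12 endothelial markers was 565 to 754, 57.1 to 101 and 129 to 171 CPM. In bulk tumors, a change in the share of a cell type and a change in RNA per cell cannot be told apart.

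*Jun* was the most abundant of the 10 in control tumors and *Fosb* the least. Per kilobase of exons, the median control level was 17.4 normalized CPM for *Jun*, higher than 81.6% of all tested genes, and its lowest control tumor (13.6) lay above the highest of any other member. *Dusp1* (7.12), *Klf4* (6.91), *Ier2* (5.46), *Junb* (5.27), *Nr4a1* (5.11) and *Egr1* (4.49) followed, and neighbors in that order among these 6 overlapped. *Atf3* (2.55), *Fos* (1.73) and *Fosb* (0.455) came last, each with a range below that of the gene before it. *Fosb* was higher than 15.4% of all tested genes and rested on 46 to 293 reads per tumor. *Junb* shares 173 exon bases with *Prdx2* on the opposite strand, *Jun* 232 with *Junos* and *Dusp1* 11 with *Ergic1*. The libraries were stranded, but the sources used here do not say whether counting used strand.

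**Figure D1:**
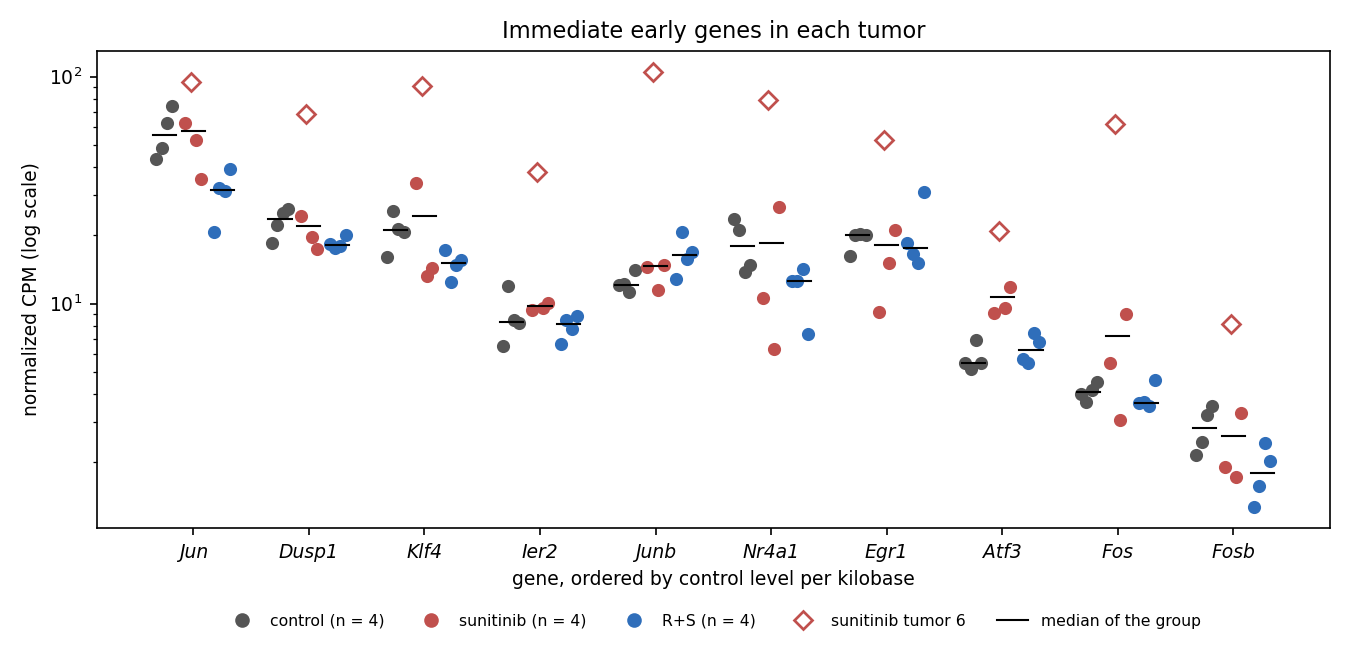
Normalized CPM (log scale) of the 10 genes in each tumor, ordered from left to right by the control level per kilobase. Points are tumors, bars are group medians (n = 4), and the open diamond, sunitinib-treated tumor 6, is the highest point for each gene (104 CPM for *Junb*, 8.10 for *Fosb*).

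All 10 genes were at their highest in sunitinib-treated tumor 6. *Fos* reached 61.8 CPM there, 11.3 times the median of the other 3 sunitinib-treated tumors and 6.88 times the next highest tumor of the 12. *Nr4a1* (79.0 CPM) was 7.44 times that median, *Junb* (104 CPM) 7.20 times and *Klf4* (90.6 CPM) 6.29 times. *Fosb*, *Ier2*, *Egr1* and *Dusp1* lay 3.47 to 4.23 times above it. *Atf3* (20.9 CPM) was 2.19 times and *Jun* (95.0 CPM) 1.80 times the median, the smallest excesses of the 10. The median log2 ratio of tumor 6 to the other 3 was 2.00 for the 10 genes and 0.04 for all tested genes, after 0.1 CPM had been added to both. Among the 50 other immediate early genes tested, 33 (66%) were at their highest in this tumor, against 22.6% of all tested genes. Their median log2 ratio was 1.09. The largest of them, named after their values had been seen, were *Ier5l* (57.2 CPM against 0.860 to 2.85 in the other 11 tumors), *Plk2* (265 against 12.1 to 33.8), *Dusp4* (67.8 against 3.35 to 9.60) and *Dusp6* (57.5 against 3.72 to 16.8). *Dusp4* and *Dusp6* encode phosphatases that act on ERK and are themselves induced by it. Of 29 upstream kinases and transcription factors, 6 (20.7%) were highest in this tumor, with a median log2 ratio of 0.13. The part of the marker levels of tumor 6 (beta cell, acinar, other islet, immune and duct) in these values was not tested. Tumor 6 enters all fits, and values without it are given beside the results.

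**Figure D2:**
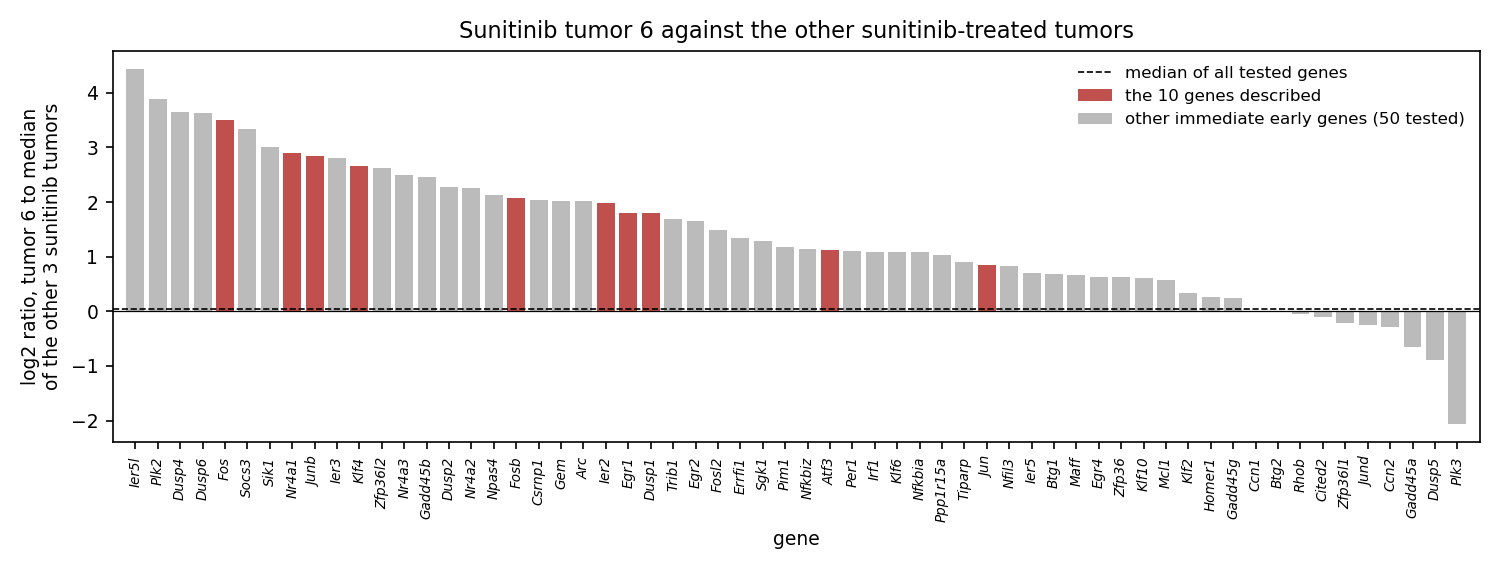
Log2 ratio of the level in sunitinib-treated tumor 6 to the median of sunitinib-treated tumors 5, 8 and 12, for the 10 genes (red) and the 50 other immediate early genes tested (grey), sorted by size. The red bars are all above 0, from 1.80 times for *Jun* to 11.3 times for *Fos*, and the dashed line is the median of all tested genes (0.04).

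The first comparison asked whether sunitinib alone changed these genes. *Atf3* rose after sunitinib, and the other 9 did not pass the test. *Atf3* was at 5.48, 5.13, 6.92 and 5.50 CPM in control tumors 1 to 4 and at 9.08, 20.9, 9.58 and 11.8 CPM in sunitinib-treated tumors 5, 6, 8 and 12. The 4 treated tumors all lay above the 4 controls. The log2 fold change was 1.16 ± 0.27 (SE, adjusted p = 0.0311 in the quasi-likelihood test of edgeR), and the exact permutation test gave p = 0.0286, the smallest that 4 tumors against 4 allow (0.171 after adjustment over the 30 exact tests made). Without tumor 6 the log2 fold change was 0.82 ± 0.19, with an adjusted p of 0.0252 by edgeR. The adjusted p rose to between 0.0590 and 0.0951 without any 1 of control tumors 1, 2, 3 and 4, and to 0.117 when only the 8 tumors compared were fitted. The acinar marker sum was also higher, and the endothelial and erythroid sums lower, in every sunitinib-treated than in every control tumor. The part of these markers in the change of *Atf3* was not tested.

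Called genes made up 1.93% of all tested genes in the higher direction and 2.55% in the lower direction in this comparison, against 1 and 0 of the 10 members. The groups did not overlap for 5.17% of all tested genes that were higher and for 5.76% that were lower after sunitinib, and again for 1 and 0 members. The log2 fold changes of all 10 members were above 0, with a median of 0.80 (0.03 over all tested genes). Without tumor 6, 4 were above and 6 below 0, with a median of -0.09.

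*Fos* was at 3.98, 3.70, 4.16 and 4.51 CPM in control tumors 1 to 4 and at 5.46, 61.8, 3.06 and 8.98 CPM in sunitinib-treated tumors 5, 6, 8 and 12. Tumors 5, 6 and 12 lay above all controls and tumor 8 below them. The log2 fold change was 2.28 ± 0.76 (adjusted p = 0.127 by edgeR, 0.0160 by DESeq2), and 0.51 ± 0.30 without tumor 6 (adjusted p = 0.375 by edgeR). *Fosb* was at 2.16 to 3.55 CPM in controls and at 1.71 to 8.10 CPM after sunitinib, with a log2 fold change of 0.40 ± 0.46 that turned to -0.30 without tumor 6. *Junb* was at 11.2 to 14.0 CPM in controls and at 11.5, 14.5, 14.8 and 104 CPM in tumors 8, 5, 12 and 6. Its log2 fold change was 1.55 ± 0.61 (adjusted p = 0.189 by edgeR) and 0.14 ± 0.17 without tumor 6. *Jun* overlapped broadly, at 43.5 to 74.0 CPM in controls and 35.3 to 95.0 CPM after sunitinib, and its log2 fold change of 0.10 ± 0.29 became -0.19 without tumor 6.

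*Egr1* was at 16.2 to 20.2 CPM in control tumors and at 9.16, 15.1, 21.2 and 52.8 CPM in sunitinib-treated tumors 5, 8, 12 and 6. The log2 fold change was 0.36 ± 0.44 and turned to -0.34 ± 0.29 without tumor 6. *Klf4* (0.86 ± 0.50), *Nr4a1* (0.74 ± 0.61) and *Dusp1* (0.50 ± 0.36) likewise turned, to -0.02, -0.34 and -0.16. *Nr4a1* was at both extremes of the 12 tumors within the sunitinib group, with 6.28 CPM in tumor 8 and 79.0 in tumor 6. *Ier2* was at 6.52 to 12.0 CPM in controls, at 9.42 to 10.0 CPM in tumors 5, 8 and 12 and at 37.9 CPM in tumor 6. Its log2 fold change was 0.93 ± 0.43 (adjusted p = 0.262 by edgeR) and 0.14 ± 0.21 without tumor 6.

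**Figure D3:**
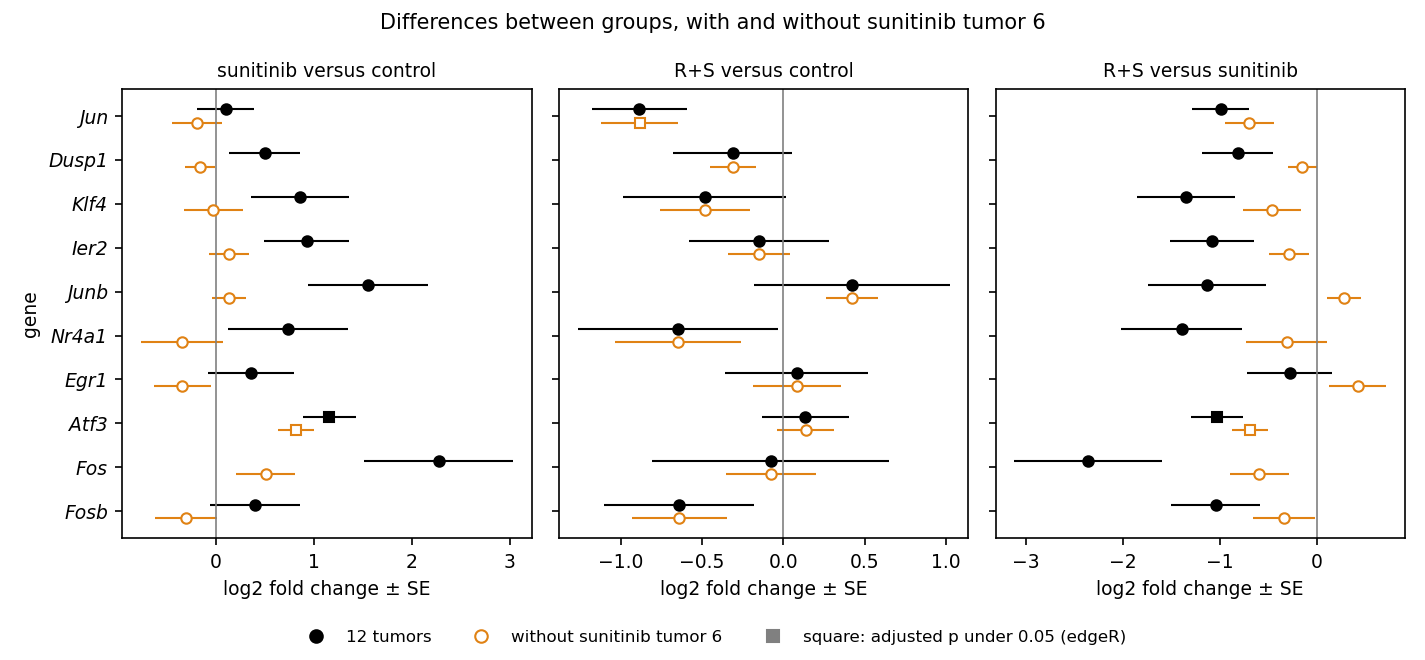
Log2 fold change ± SE of the 10 genes in the 3 comparisons, from the fit of 12 tumors (black) and without sunitinib-treated tumor 6 (orange, open). Squares mark an adjusted p under 0.05 by edgeR: *Atf3* in both comparisons with the sunitinib group, with and without tumor 6, and *Jun* in R+S versus control without tumor 6.

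The second comparison asked the same of rapamycin plus sunitinib. No member passed the threshold in the fit of 12 tumors by edgeR (1 at an unadjusted p under 0.05, and 1 by DESeq2, *Jun* in both cases). *Jun* was at 43.5, 48.5, 62.6 and 74.0 CPM in control tumors 1 to 4 and at 20.7, 32.2, 31.4 and 39.3 CPM in R+S-treated tumors 4, 5, 7 and 10. Every R+S-treated tumor lay below every control tumor. The log2 fold change was -0.89 ± 0.29 (adjusted p = 0.115 by edgeR, 0.0388 by DESeq2), and the exact permutation test gave p = 0.0286, the smallest possible (0.171 adjusted over 30 tests). Without sunitinib-treated tumor 6, which enters through the shared estimate of the spread, the log2 fold change was -0.89 ± 0.24 with an adjusted p of 0.0395 by edgeR. With only the 8 tumors compared the adjusted p was 0.0289 by edgeR. Of all tested genes, DESeq2 called 10.4%, edgeR 9.67% without tumor 6 and 15.8% with the 8 tumors, against 4.16% with all 12. Among the 12 fits that each left out 1 tumor, *Jun* passed in 1, and the adjusted p reached 0.263 by edgeR. By edgeR it also did not pass without a filter on low counts (adjusted p = 0.142) or with tumors of 1 prefix summed (0.120). Library totals gave 0.101 and upper-quartile factors 0.0970. The endothelial and erythroid marker sums were also lower, and the acinar sum higher, in every R+S-treated than in every control tumor. The part of these markers in the level of *Jun* was not tested.

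Called genes made up 1.55% (higher) and 2.61% (lower) of all tested genes in R+S versus control, against 0 and 0 members. Non-overlapping groups made up 11.6% (higher) and 11.9% (lower), against 0 members and 1, *Jun*. The median log2 fold change of the 10 members was -0.23, against 0.01 over all tested genes, with 3 above and 7 below 0. *Nr4a1* was at 13.8 to 23.6 CPM in controls and at 7.33 to 14.3 CPM after R+S (log2 fold change -0.65 ± 0.62). *Fosb* was at 1.28 to 2.42 CPM after R+S (-0.64 ± 0.46), *Klf4* at 16.1 to 25.5 CPM in controls and 12.4 to 17.2 after R+S (-0.48 ± 0.50), and *Dusp1* at 18.6 to 26.0 and 17.6 to 20.1 CPM (-0.31 ± 0.36). In each of these 4 genes, 3 R+S-treated tumors lay below all controls and the remaining one overlapped with them. The exact permutation test gave p = 0.0571 (0.171 adjusted) for each. The share of all tested genes with 3 of 4 tumors below all controls was not taken. *Junb* went the other way, with 12.9 to 20.7 CPM after R+S and a log2 fold change of 0.42 ± 0.60. R+S-treated tumors 5, 7 and 10 lay above all controls, and the exact permutation test of *Junb* also gave p = 0.0571 (0.171 adjusted). *Fos* (3.54 to 4.63 CPM), *Ier2* (6.66 to 8.81), *Egr1* (15.1 to 30.9) and *Atf3* (5.45 to 7.40) had log2 fold changes between -0.15 and 0.14. In the fit that left out tumor 6, all 10 members had the same log2 fold change in this comparison to 2 decimals, and those other than *Jun* had adjusted p between 0.121 and 0.887 by edgeR.

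The third comparison set R+S against sunitinib, which is also the test of whether the 2 treatment effects differed, since both share the control tumors. *Atf3* was lower after R+S, at 5.69, 5.45, 7.40 and 6.76 CPM in tumors 4, 5, 7 and 10 against 9.08 to 20.9 CPM after sunitinib. The groups did not overlap. The exact permutation test gave p = 0.0286, the smallest possible (0.171 adjusted over 30 tests). The log2 fold change was -1.02 ± 0.27 (adjusted p = 0.0433 by edgeR) and -0.68 ± 0.19 without sunitinib-treated tumor 6 (adjusted p = 0.0433 by edgeR). The call was lost without any 1 of control tumors 1 to 4, sunitinib-treated tumor 12 or the 4 R+S-treated tumors (adjusted p 0.0570 to 0.126 by edgeR), without a filter on low counts (0.0656) and with only the 8 tumors compared (0.119). The log2 fold change stayed between -0.96 and -1.10 in these fits, and calls over all genes by edgeR fell too, from 1200 to 1, 0 and 1 without R+S-treated tumors 4, 5 and 7 and to 3 with the 8 tumors. In the same comparison 30 of 31 acinar markers tested were below 0 (4 called lower, median -1.49) and 8 of 12 endothelial markers were called higher. The part of these cell types in the difference of *Atf3* was not tested.

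*Jun* was also lower after R+S than in most sunitinib-treated tumors, with a log2 fold change of -0.99 ± 0.29 (adjusted p = 0.0595 by edgeR, 0.0125 by DESeq2) and -0.70 ± 0.25 without tumor 6. Sunitinib-treated tumor 12, with 35.3 CPM, lay among the R+S-treated tumors. *Ier2* did not overlap either, with R+S-treated tumors at 6.66 to 8.81 CPM and sunitinib-treated tumors from 9.42 CPM upward. Its log2 fold change was -1.08 ± 0.43 (adjusted p = 0.123 by edgeR) and -0.29 ± 0.21 without tumor 6. The exact permutation test of *Ier2* gave p = 0.0286, the smallest possible (0.171 adjusted over 30 tests). The difference of *Fos* was -2.36 ± 0.76 (adjusted p = 0.0735 by edgeR, 0.00786 by DESeq2) and -0.59 ± 0.30 without tumor 6. All 10 log2 fold changes were below 0, with a median of -1.06 (-0.02 over all tested genes). Without tumor 6 the median was -0.32, and *Egr1* (0.42 ± 0.30) and *Junb* (0.28 ± 0.18) turned. Called genes made up 2.63% (higher) and 4.58% (lower) of all tested genes, against 0 and 1 members. Non-overlapping groups made up 8.9% (higher) and 9.73% (lower), against 0 members and 2.

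The balance within the JUN family differed between tumors. Per kilobase, the ratio of *Junb* to *Jun* was 0.385, 0.347, 0.248 and 0.263 in control tumors 1 to 4 and 0.862, 0.892, 0.695 and 0.594 in R+S-treated tumors 4, 5, 7 and 10. It was 0.323, 0.303 and 0.580 in sunitinib-treated tumors 5, 8 and 12, and 1.52 in tumor 6, the only tumor in which *Junb* exceeded *Jun*. All R+S-treated tumors therefore lay above all controls, and above the sunitinib-treated tumors other than 6. This ratio was chosen after the values of both genes had been seen and was not tested. *Jund*, the third member of the family, made up 59.8% to 68.0% of the summed family level per kilobase in controls, 44.8% in sunitinib-treated tumor 6, 73.7% to 85.9% in the other 3 and 73.1% to 79.6% after R+S. *Jun* itself made up 23.5% to 32.2% in controls and 12.0% to 16.1% after R+S. The FOS family (*Fos*, *Fosb*, *Fosl1* and *Fosl2*) summed to 0.0372 to 0.0994 of the JUN family in 11 tumors and to 0.241 in sunitinib-treated tumor 6.

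**Figure D4:**
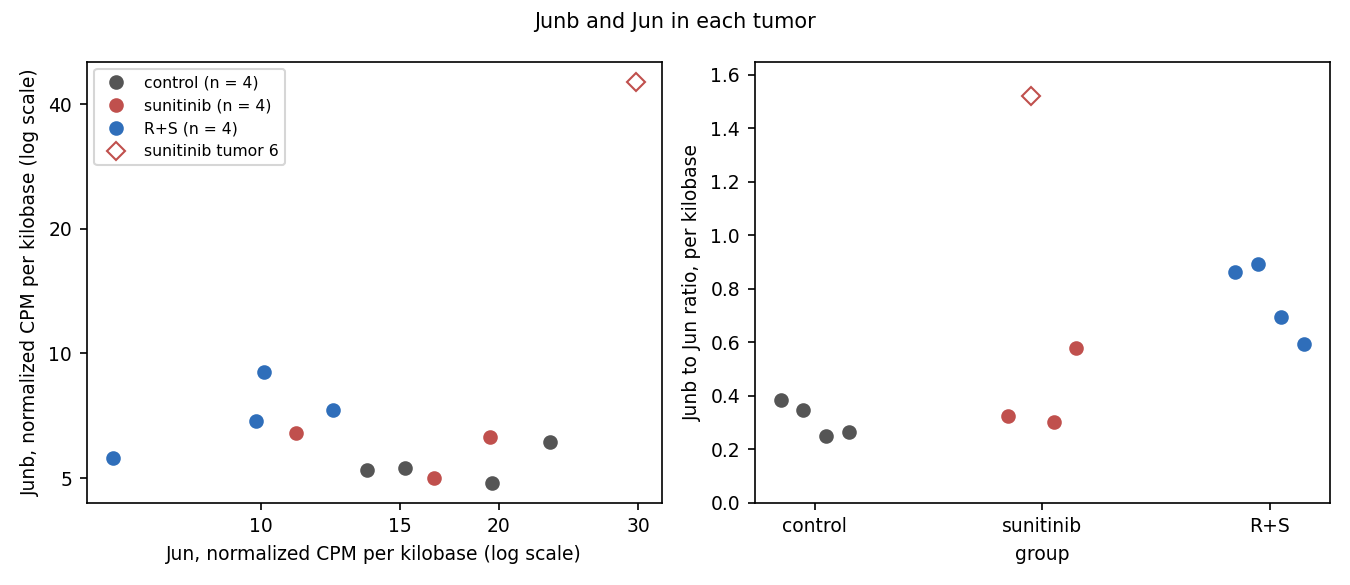
*Junb* against *Jun* in normalized CPM per kilobase (left, log scales) and their ratio by group (right), 1 point per tumor with sunitinib-treated tumor 6 as an open diamond. The ratio is 0.248 to 0.385 in the control group, 0.594 to 0.892 in the R+S group and 1.52 in tumor 6.

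Other immediate early genes and the kinases and factors upstream of them were taken from 2 lists. Of 50 other immediate early genes tested, 0 rose and 2 fell after sunitinib, 0 rose and 1 fell after R+S, and 0 differed between the treatments by edgeR. These counts are near the shares of all tested genes, 1.93% higher and 2.55% lower after sunitinib and 1.55% and 2.61% after R+S, and between the treatments the shares were 2.63% and 4.58%. At an unadjusted p under 0.05 by edgeR there were 14, 8 and 12, and the share of all tested genes at that cut was not taken. *Klf2*, a zinc finger factor typical of endothelium, was at 4.77 to 5.26 CPM in control, 1.199 to 1.658 in sunitinib-treated and 1.60 to 2.44 in R+S-treated tumors. Its log2 fold changes were -1.81 ± 0.22 (adjusted p = 0.000486 by edgeR) and -1.38 ± 0.22 (0.00433), and -1.88 and -1.38 without tumor 6 (0.000506 and 0.00216). *Zfp36l1*, which encodes a protein that promotes mRNA decay, was at 14.1 to 19.8 CPM in control and 5.13 to 10.4 CPM in sunitinib-treated tumors (log2 fold change -0.97 ± 0.24, adjusted p = 0.0397 by edgeR), and without tumor 6 the log2 fold change was -0.98 with an adjusted p of 0.0517 by edgeR.

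Of the 29 upstream genes, 0 were higher and 1 was lower in each comparison by edgeR, a share near the 2.55%, 2.61% and 4.58% of all tested genes called lower. At an unadjusted p under 0.05 by edgeR there were 6, 5 and 6, again without a share of all tested genes at that cut. *Elk3*, an ETS partner of serum response factor, was at 24.6 to 33.3 CPM in control, 5.83 to 12.9 in sunitinib-treated and 13.6 to 17.2 in R+S-treated tumors, with log2 fold changes of -1.56 ± 0.22 (adjusted p = 0.00129 by edgeR) and -0.88 ± 0.22 (0.0426), and -1.38 and -0.88 without tumor 6 (0.000467 and 0.00463). Endothelial markers moved with both *Klf2* and *Elk3*: 10 of 12 fell after sunitinib and 10 of 12 after R+S, and their part in the 2 genes was not tested. *Atf4*, the stress-response factor, was lower after R+S than after sunitinib, at 193 to 213 CPM against 334 to 468 (log2 fold change -0.92 ± 0.15, adjusted p = 0.0233 by edgeR), and at 245 to 383 CPM in controls (adjusted p = 0.0578 for R+S versus control and 0.242 for sunitinib versus control by edgeR). Without tumor 6 the log2 fold change of *Atf4* was -0.98 for R+S versus sunitinib (adjusted p = 0.0168 by edgeR) and -0.57 for R+S versus control (0.0326), which then passed. *Atf3* and *Atf4* were the only listed genes, among the 10 members and the 29 upstream genes, that differed between the 2 treatments in the fit of 12 tumors.

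Without sunitinib-treated tumor 6, more of the listed genes and more of all tested genes passed the test. Of the 50 other immediate early genes, 1 rose and 3 fell after sunitinib, 1 rose and 4 fell after R+S, and 2 were higher and 3 lower after R+S than after sunitinib. *Dusp6*, named after its values had been seen, was at 13.0 to 16.8 CPM in control tumors, at 3.72, 4.67 and 6.90 CPM in sunitinib-treated tumors 8, 5 and 12, at 57.5 CPM in tumor 6 and at 4.55 to 7.80 CPM after R+S. Its log2 fold change after sunitinib was 0.29 ± 0.72 with tumor 6 and -1.55 ± 0.25 without it (adjusted p = 0.00401 by edgeR). After R+S it was -1.31 ± 0.74 in the fit of 12 tumors and -1.31 ± 0.23 without tumor 6 (adjusted p = 0.343 and 0.00617 by edgeR). *Jund* rose after sunitinib without tumor 6 (log2 fold change 0.94 ± 0.23, adjusted p = 0.0397 by edgeR), from 60.7 to 82.0 CPM in controls to 105 to 179 CPM in the 3 tumors. In tumor 6 *Jund* was at 102 CPM, also above all controls. It did not pass in the fit of 12 tumors, where 0 of the 50 other immediate early genes were called higher after sunitinib. Of the 29 upstream genes, 1 fell after sunitinib, 2 fell after R+S, and 2 were higher and 2 lower after R+S than after sunitinib. All tested genes without tumor 6 gave 1.96% higher and 3.34% lower after sunitinib, 4.11% and 5.56% after R+S, and 4.17% and 5.89% between the treatments.

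Among tumors of the same group, the 10 genes varied together mainly through tumor 6. With group means removed, the median Pearson r of log2 CPM over the 45 pairs of members was 0.79 across the 12 tumors, and 43 pairs were over 0.5. Without tumor 6 the median was 0.17 and 5 pairs were over 0.5. The genes most like the mean of the members among 12549 others were *Vwa5b1* (r = 0.978), the splicing factor *Srsf2* (0.976), *Id3* (0.972), which encodes an inhibitor of helix-loop-helix factors and is a target of BMP signaling, the actin-bundling gene *Fscn1* (0.971) and *Smad9* (0.971), a transducer of BMP signaling. All 5 were highest in tumor 6: *Id3* was at 173 CPM there and at 4.99 to 16.2 in the other 11, and *Vwa5b1* at 207 against 13.5 to 22.5. Without tumor 6 their r fell to between 0.486 and 0.747, and none of them remained among the 5 highest. These correlations share the same libraries and are descriptions.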

How the data were processed

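RNA-seq libraries had been made from poly(A) RNA of 12 tumors with a stranded kit. The authors deposited 1 table per tumor with raw counts of reads per Ensembl gene. Per the submitters' processing notes, cutadapt 1.2.1, TopHat2 2.0.9, HTSeq 0.5.4p3 and GRCm38 were used, and the annotation release and the strand setting are not given in the sources used here. Reads with several alignments are left out by this counter. The 5 summary lines of each table were left out, among them the reads on no gene (11.1% to 18.8% of uniquely placed reads). Symbols, coordinates and exon lengths came from GENCODE M21. Group and tumor number were taken from the labels.

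The test was the quasi-likelihood F-test in edgeR 4.0.16 (R 4.3.3) with TMM factors and all 12 tumors in 1 fit. filterByExpr (minimum count 10, minimum total 15) left 16645 genes. Benjamini-Hochberg adjustment was made over all of them, with a threshold of 0.05. SE values are the size of the log2 fold change over the square root of its F statistic. The log2 CPM values of the 10 members (prior count 2) were also compared by two-sided exact permutation over 70 arrangements (SciPy 1.17.1). CPM per kilobase used the exon length of the gene. The fit was tested on simulated counts.

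The members and lists were chosen with earlier results of these data known. Named are the 10 members, up to 4 listed genes per direction and comparison with an adjusted p under 0.05, and the 5 genes with the highest r to the mean of the members (average log2 CPM of at least 1, no predicted genes); others are named as chosen later. No 2 tumors of a group differed by as little as sampling noise. Depth limits *Fosb* and *Fos* most, and counting error is a lower bound since PCR copies were not marked. The alternatives were DESeq2 1.42.0, library totals or upper-quartile factors, acinar genes left out of library sizes, no filter or 10 counts in every tumor, only the 8 tumors compared, tumors with 1 prefix summed within the treated groups, and each tumor left out. The fit of the other lists without sunitinib-treated tumor 6 was added after the data had been seen.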

Additional observations from a re-analysis of the deposited data

Results flagged for a closer look

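In 4 of the 30 sets of 4 tumors (10 genes in 3 groups), 1 tumor lay far from the other 3 by Dixon's ratio, the gap to the nearest tumor divided by the range on the log2 CPM scale (above the 95% critical value for 4). Chance gives about 1 in 20. Sunitinib-treated tumor 6 was the high one for *Ier2* (ratio 0.954, 37.9 CPM against 9.42 to 10.0) and *Junb* (0.887, 104 CPM against 11.5 to 14.8). R+S-treated tumor 10 was the high one for *Fos* (0.845, 4.63 CPM against 3.54 to 3.69), and control tumor 1 was the low one for *Egr1* (0.975, 16.2 CPM against 20.1 to 20.2). In the last 2 sets the whole range was small. *Fos*, with the largest excess in tumor 6, was not among these sets, since the other 3 sunitinib-treated tumors were themselves spread from 3.06 to 8.98 CPM.

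The effects of sunitinib and of R+S on *Atf3* differed in the fit of 12 tumors (adjusted p = 0.0433 by edgeR). The log2 difference was -1.02 for R+S minus sunitinib. Every R+S-treated tumor lay below every sunitinib-treated tumor, and the tumors were not paired. The call depended on the fit: it held for 3 of 12 single tumors dropped in turn (adjusted p up to 0.126 by edgeR). With only the 8 tumors compared it was lost (0.119 by edgeR). The exact permutation test gave 0.171 after adjustment.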

How the results depend on the processing

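No paired analysis was made, since the labels do not link tumors of different groups. The number of members past the threshold was 1 for sunitinib versus control, 0 for R+S versus control and 1 for R+S versus sunitinib. With DESeq2 it was 2, 1 and 4 (no p for *Junb*), and with only the 8 tumors compared 0, 1 and 0. With tumors of 1 prefix summed within the treated groups, the fit held 4 control, 2 sunitinib and 3 R+S units. Sunitinib-treated tumor 6 was summed with tumors 5 and 8 there. The number of members past the threshold was then 2 for sunitinib versus control and 3 for R+S versus sunitinib, with 4.39% and 6.09% of all tested genes called. Without a filter on low counts it was 0 for R+S versus sunitinib, with 1.91% of all tested genes called. Calls over all tested genes moved as well: DESeq2 called 9.06%, 10.4% and 19.5% of them and the 8-tumor fits 2.33%, 15.8% and 0.0186%, against 4.48%, 4.16% and 7.21% in the fit of 12 tumors. With each tumor left out, the numbers ranged from 0 to 2, 0 to 1 and 0 to 2. The shares of all tested genes called ranged from 2.61% to 5.34%, 1.73% to 9.67% and 0.00% to 16.9% in those fits. Without sunitinib-treated tumor 8, *Fos* joined *Atf3* in both comparisons with the sunitinib group (4.48% and 4.32% of all tested genes called). In R+S versus sunitinib, *Fos* also passed without sunitinib-treated tumor 5 (adjusted p = 0.0356 by edgeR), where 16.9% of all tested genes were called. Without tumor 12 *Jun* passed (0.0464) and *Atf3* did not (0.0639), with 3.47% of all tested genes called. Without sunitinib-treated tumor 6, the calls among other immediate early genes were 4, 5 and 5 in place of 2, 1 and 0, and among upstream genes 1, 2 and 4 in place of 1, 1 and 1. Calls over all tested genes rose too in that fit, from 4.48%, 4.16% and 7.21% to 5.30%, 9.67% and 10.1% by edgeR.

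Of 240 log2 fold changes under the other alternatives, 1 turned: *Jun* in sunitinib versus control, to -0.13 with tumors of 1 prefix summed. Of 360 values with a tumor left out, 11 turned. In sunitinib versus control the ranges were -0.30 to 0.64 for *Fosb*, -0.19 to 0.29 for *Jun*, -0.34 to 0.64 for *Egr1*, -0.16 to 0.70 for *Dusp1*, -0.34 to 1.08 for *Nr4a1* and -0.023 to 1.14 for *Klf4*, each lowest without sunitinib-treated tumor 6 (*Jun* also turned, to -0.010, without control tumor 1). In R+S versus sunitinib they were -1.43 to 0.28 for *Junb* and -0.55 to 0.42 for *Egr1*, highest without that tumor. In R+S versus control, *Egr1* ranged from -0.20 (without R+S-treated tumor 10) to 0.20 and *Ier2* from -0.27 to 0.039 (without control tumor 2). In the exact tests, the difference of *Egr1* between R+S and control turned with library totals alone, at p = 0.971, and *Dusp1* and *Klf4* in that comparison reached p = 0.0286 by exact permutation. The causes were not tested. At 4 tumors a group, a p above the threshold does not show that a gene did not change, and *Fosb*, with the lowest level, was the least precise by counting.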
